A study of Mus musculus with 6 samples.

Results

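Semaphorins, plexins and neuropilins were taken from the deposited transcript table by gene symbol: every Sema gene of classes 3 to 7, every Plxn gene of families A to D, Nrp1, Nrp2 and both Plxdc genes. They comprise 33 of the 47729 genes and 213 of the 115220 transcripts in the table. There are 20 semaphorins, which are the ligands, and 13 receptor genes, namely 9 plexins, 2 neuropilins and 2 plexin domain containing (Plxdc) genes. Ribosome-associated RNA from D2 receptor-expressing cells of the medial prefrontal cortex (mPFC) was sequenced in 3 Ctrl and 3 Gsk3sKO in mPFC D2 libraries. The comparison asks how these cells' translated RNA differs once Gsk3b, the gene of the kinase GSK3β, has been disrupted. All mice were adult C57BL/6 males aged 2.5 to 3 months that carried D2Cre (a transgene with Cre under the dopamine D2 receptor promoter), a Cre-dependent Flag-Cas9 (LSL-Flag-Cas9) and RiboTag (a hemagglutinin-tagged ribosomal protein Rpl22 made after Cre). The Gsk3sKO group received AAV Gsk3 sgRNA/GFP in the mPFC and the Ctrl group AAV GFP, a virus without a guide. Tissue was collected 3 weeks after injection. Cas9 and tagged ribosomes were therefore present in both groups. Tagging does not depend on the virus, so tagged cells that it did not reach could be precipitated too.

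Semaphorins are secreted or membrane-bound guidance proteins. Plexins are their main signalling receptors, and neuropilins are co-receptors that most class 3 semaphorins need to bind before a class A plexin can signal. In the developing cortex the system steers axons and dendrites, and in the adult brain it is known for roles in spine and synapse turnover. Downstream of Sema3a, GSK3β phosphorylates collapsin response mediator proteins, which is the known link between this pathway and the deleted kinase.

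Transcript levels were given in FPKM (sequenced fragments divided by transcript length and by library depth), and a gene total is the sum of the FPKM of its listed transcripts. Read counts were not used here, and depth was estimated from the steps between low FPKM values, at about 23.5 to 45.2 M reads per library. The figure is approximate, since 15.9% to 33.8% of the low values lay within 0.02 reads of a whole number. By this estimate the lowest value of a tested member rested on about 96 reads (Sema4b in Gsk3sKO replicate 2). Gsk3b itself, the targeted gene, had totals of 35.6, 53.8 and 56.5 FPKM in Ctrl and 36.9, 37 and 33.6 FPKM in Gsk3sKO (replicates 1 to 3 in each group, as in all lists of values here). Ctrl replicate 1 lay within the Gsk3sKO values (limma, adjusted p = 0.773). A Cas9 cut need not alter the amount of RNA, so this total does not measure the knockout. Drd2, which defines the labelled cells, was at 1.58, 6.02 and 14.1 FPKM in Ctrl and 8.32, 5.96 and 7.28 FPKM in Gsk3sKO, with Ctrl replicate 1 lowest. Of markers of other cells, 3 of 6 oligodendrocyte genes (Mog, Mag and Cnp) were lower in Gsk3sKO at an unadjusted p under 0.05, with the list's summed level at 118.4 to 183.2 FPKM in Ctrl and 128.1 to 165.4 FPKM in Gsk3sKO and Mog at 0 in Gsk3sKO replicates 2 and 3. Of 5 tested microglia genes 1 (C1qa) was lower. Summed levels were 14.2 to 25.4 FPKM in Ctrl and 12.4 to 15.4 FPKM in Gsk3sKO. None of 6 astrocyte (summed level 82.0 to 104.3 FPKM in Ctrl, 82.4 to 101.8 FPKM in Gsk3sKO) or 6 endothelial genes (13.3 to 47.4 and 18.8 to 40.6 FPKM) passed. The part of these cells in the members' values was not tested. In precipitated bulk RNA, fewer cells of a type and less RNA per cell cannot be told apart. The labels do not say whether libraries came from separate mice, so every p-value here reflects library-to-library spread alone, part of which may be technical.

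Semaphorin and receptor RNA was present in D2 ribosomes at moderate levels, and no member passed the test between groups. Of the 33 members, 29 had a mean of at least 1 FPKM over the 6 libraries and were tested with limma on log2(FPKM + 1). Those left out were Sema3b, Sema3f, Sema3g and Plxnb3. At an unadjusted p under 0.05, 0 of 17 semaphorins and 0 of 12 receptors were called, against 6.56% of all 12874 gene totals tested. The smallest unadjusted p of a member was 0.0721 (Sema4b), and adjusted p-values lay between 0.779 and 0.999 (limma, Benjamini-Hochberg). DESeq2 and edgeR were not applied, since the values are not counts. Across all genes, 5.20% were called lower and 1.36% higher in Gsk3sKO. That made 79.3% of the calls lower, and 62.1% after the libraries were rescaled to their median ratio. The median log2 fold change was -0.022 for the semaphorins and -0.035 for the receptors, beside -0.062 for all gene totals. The members' log2 fold changes lay between -0.60 (Sema4b) and 0.43 (Sema5b), 16 below 0 and 13 above, with standard errors from 0.14 to 0.52. These changes are of FPKM + 1, a scale that compresses a change of FPKM itself at low levels. Both a doubling and a halving of the Ctrl mean FPKM lay outside the 95% interval for 10 of the 12 tested receptors and for 7 of 17 semaphorins, beside 54.0% of all gene totals. The other two receptors were Plxna3 and Plxnb1. Smaller differences may have gone undetected for every member with 3 libraries per group. Summed over members, the semaphorins reached 118.3, 141.9 and 138.7 FPKM in Ctrl and 131.0, 137.5 and 118.2 FPKM in Gsk3sKO. Receptors summed to 111.6, 121.2 and 131.8 FPKM in Ctrl and 119.3, 119.6 and 102.7 FPKM in Gsk3sKO. Both sums overlapped between groups. Ctrl replicate 1 was the lowest Ctrl library for 22 of the 33 members, beside 46.7% of all tested gene totals, and Gsk3sKO replicate 3 was the lowest of its group for 16 of 33, beside 41.7%.

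**Figure D1:**
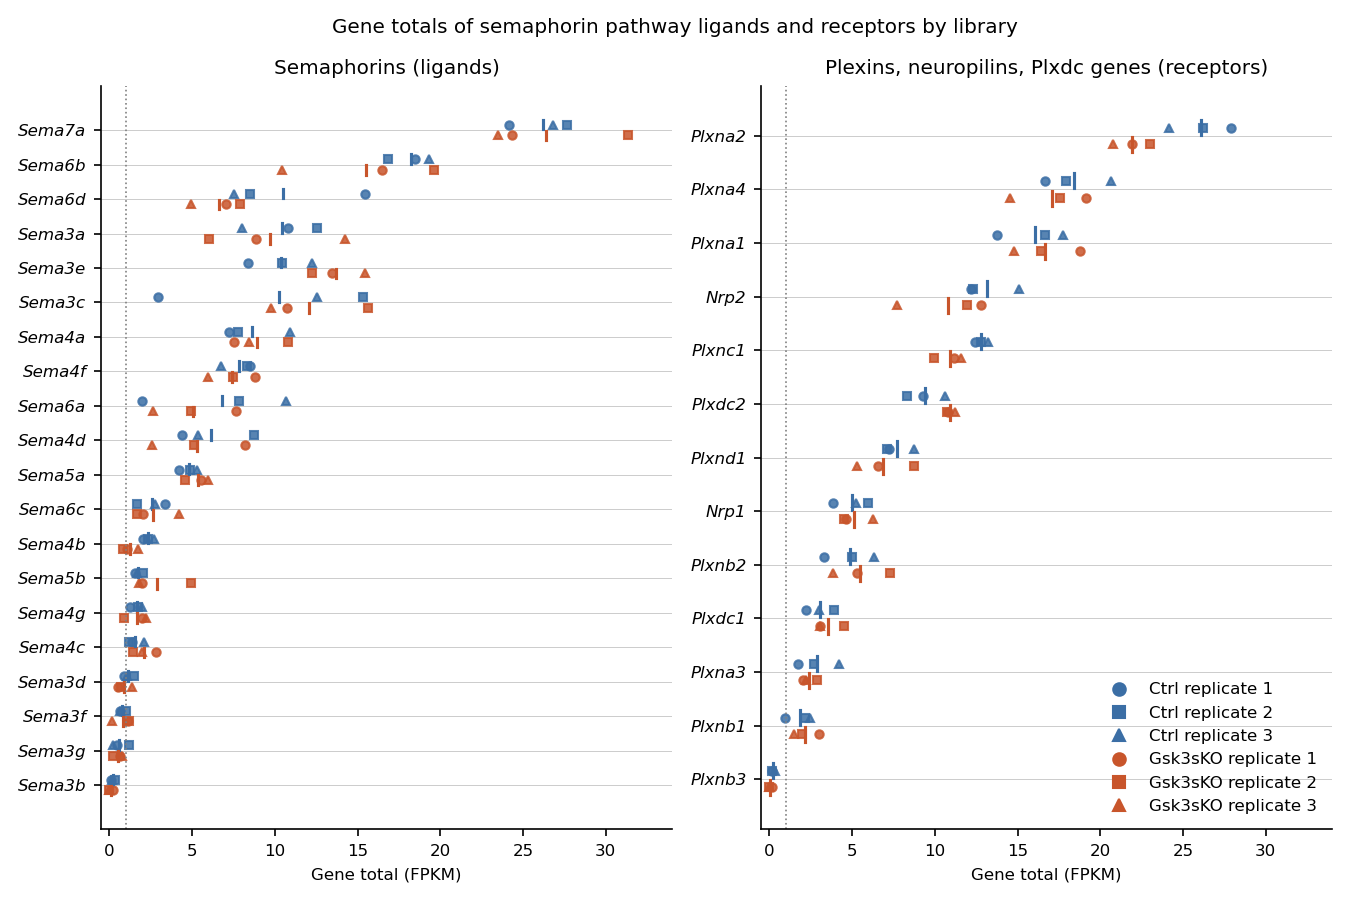
Gene totals in FPKM (x axis, linear) of the 20 semaphorins (left) and 13 receptor genes (right), each ordered by the Ctrl mean. Points are single libraries, vertical ticks are group means, and the dotted line marks the filter at 1 FPKM. Sema7a and Plxna2 lead their panels, and for most members the Ctrl and Gsk3sKO points overlap.

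The most abundant semaphorin was Sema7a, a membrane-anchored ligand of Plxnc1 and of β1 integrin (gene ENSMUSG00000038264, chr9:57940112-57962865, GRCm38, plus strand). Its total was 24.2, 27.7 and 26.8 FPKM in Ctrl and 24.4, 31.4 and 23.5 FPKM in Gsk3sKO, at the 78.9th percentile of Ctrl levels among tested genes. The groups overlapped, with a log2 fold change of 0.00063 (SE 0.16) and a 95% interval of -0.37 to 0.37. Only 1 transcript is listed for Sema7a, so its total does not depend on how reads were divided among isoforms. In Ctrl the next gene, Sema6b, lay below every Sema7a value, and Sema6d below every Sema6b value. From Sema6d down to Sema5a each neighbour in the order of Ctrl means overlapped the next, so that Sema6d, Sema3a, Sema3e, Sema3c, Sema4a, Sema4f, Sema6a, Sema4d and Sema5a were not separated from their neighbours beyond the spread of the libraries.

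Class 3 semaphorins are the secreted, mostly neuropilin-dependent ligands. Sema3e, the exception that binds Plxnd1 directly (chr5:14025276-14256689, plus strand), was at 8.41, 10.4 and 12.2 FPKM in Ctrl and 13.4, 12.3 and 15.4 FPKM in Gsk3sKO. All Gsk3sKO values lay above all Ctrl values, but only just, since Ctrl replicate 3 and Gsk3sKO replicate 2 nearly touched. The log2 fold change was 0.38 (SE 0.19), a ratio of FPKM + 1 of 1.3 (95% interval 0.958 to 1.77), and it did not pass (limma, adjusted p = 0.79). With the libraries rescaled to their median ratio its log2 fold change was 0.44 and passed the unadjusted threshold. Sema3a, the classical growth cone collapsing ligand of Nrp1, was at 10.8, 12.6 and 7.99 FPKM in Ctrl and 8.84, 6.0 and 14.2 FPKM in Gsk3sKO, and the Gsk3sKO libraries spread on both sides of Ctrl. Sema3c, which binds both neuropilins, was at 2.95, 15.3 and 12.5 FPKM in Ctrl and 10.7, 15.6 and 9.78 FPKM in Gsk3sKO. Ctrl replicate 1 stood far below the other 5 libraries here. The log2 fold change of Sema3c was 0.42 (SE 0.49) with all libraries and -0.21 without Ctrl replicate 1, so its sign rests on that library. Sema3d was near the filter, at 0.917, 1.5 and 1.04 FPKM in Ctrl and 0.509, 0.716 and 1.35 FPKM in Gsk3sKO. Sema3f, the Nrp2 ligand, was at 0.672, 0.991 and 0.646 FPKM in Ctrl and 1.11, 1.17 and 0.152 FPKM in Gsk3sKO, Sema3g between 0.20 and 1.19 FPKM, and Sema3b at no more than 0.33 FPKM, with a listed 0 in Gsk3sKO replicates 2 and 3. The best represented secreted ligands were thus Sema3a, Sema3c and Sema3e.

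Class 4 semaphorins are transmembrane proteins that mostly act through class B plexins. Sema4b, whose intracellular end binds postsynaptic scaffold proteins (chr7:80186841-80226527, plus strand), was at 2.01, 2.34 and 2.71 FPKM in Ctrl and 1.1, 0.843 and 1.76 FPKM in Gsk3sKO. Every Gsk3sKO value was below every Ctrl value. The log2 fold change was -0.60 (SE 0.29), the lowest among the members, and the ratio of FPKM + 1 was 0.659 (95% interval 0.414 to 1.05). It did not pass (limma, adjusted p = 0.779) with all libraries, and the unadjusted threshold was passed without Gsk3sKO replicate 3, at a log2 fold change of -0.76. Sema4a and Sema4f, another semaphorin of the postsynaptic density, were the highest of the class. Sema4a measured 7.26, 7.75 and 10.9 FPKM in Ctrl and 7.52, 10.8 and 8.47 FPKM in Gsk3sKO and Sema4f 8.5, 8.32 and 6.76 FPKM in Ctrl and 8.8, 7.47 and 5.99 FPKM in Gsk3sKO, with overlapping groups for both. Sema4d, the Plxnb1 ligand also made by oligodendrocytes, was at 4.4, 8.76 and 5.35 FPKM in Ctrl and 8.19, 5.15 and 2.59 FPKM in Gsk3sKO and ranged widely in both groups. Sema4c and Sema4g, both ligands of Plxnb2, stayed below 3 FPKM in every library, Sema4c at 1.36, 1.22 and 2.1 FPKM in Ctrl and 2.83, 1.45 and 2.0 FPKM in Gsk3sKO and Sema4g at 1.22, 1.75 and 1.97 FPKM in Ctrl and 1.98, 0.875 and 2.22 FPKM in Gsk3sKO.

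Class 5 and class 6 semaphorins are transmembrane proteins too, and class 6 members bind class A plexins without a neuropilin. Sema5a, which carries thrombospondin repeats, was at 4.21, 4.89 and 5.29 FPKM in Ctrl and 5.53, 4.56 and 5.95 FPKM in Gsk3sKO with a log2 fold change of 0.13 (SE 0.21). Its relative Sema5b was at 1.53, 2.02 and 1.68 FPKM in Ctrl and 2.0, 4.95 and 1.78 FPKM in Gsk3sKO, where Gsk3sKO replicate 2 stood apart. Sema6b was the leading class 6 member at 18.5, 16.8 and 19.3 FPKM in Ctrl and 16.5, 19.6 and 10.4 FPKM in Gsk3sKO, with Gsk3sKO replicate 3 lowest. Sema6d was at 15.5, 8.51 and 7.52 FPKM in Ctrl and 7.05, 7.87 and 4.93 FPKM in Gsk3sKO. Its Ctrl replicate 1 was far above the rest, and the log2 fold change of -0.55 (SE 0.29) did not pass (limma, adjusted p = 0.792) with all libraries. Without Ctrl replicate 3 it passed the unadjusted threshold narrowly, at -0.74. Sema6a, the ligand of Plxna2 and Plxna4, was at 2.0, 7.82 and 10.7 FPKM in Ctrl and 7.65, 4.94 and 2.64 FPKM in Gsk3sKO and had the widest standard error of the members, 0.52. Sema6c was at 3.36, 1.66 and 2.75 FPKM in Ctrl and 2.01, 1.66 and 4.2 FPKM in Gsk3sKO. The 4 class 6 log2 fold changes were all below 0, as were 58.9% of those of all gene totals, with a median of -0.25 and an upper end of -0.022 for Sema6c, which turned to 0.023 after rescaling of the libraries.

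Among the receptors, class A plexins were the most abundant. Plxna2, a receptor of class 6 ligands and, with neuropilins, of class 3 ligands (chr1:194618218-194816869, plus strand), was at 27.9, 26.2 and 24.2 FPKM in Ctrl and 21.9, 23 and 20.8 FPKM in Gsk3sKO. All Gsk3sKO values lay below all Ctrl values. The log2 fold change of -0.24 (SE 0.14) did not pass (limma, adjusted p = 0.792), and its interval of -0.56 to 0.079 covers 0. Plxna4, the main plexin of Sema3a signalling in sensory and cortical neurons, was at 16.7, 17.9 and 20.6 FPKM in Ctrl and 19.1, 17.6 and 14.5 FPKM in Gsk3sKO, and Plxna1 at 13.8, 16.7 and 17.8 FPKM in Ctrl and 18.8, 16.4 and 14.8 FPKM in Gsk3sKO. Plxna2 exceeded every Plxna4 value in Ctrl, while Plxna4, Plxna1, Nrp2 and Plxnc1 overlapped from one to the next. Plxna3 was low, at 1.72, 2.68 and 4.21 FPKM in Ctrl and 2.06, 2.91 and 2.23 FPKM in Gsk3sKO. Plxnc1, the receptor of Sema7a (chr10:94790866-94944835, minus strand), was at 12.5, 12.8 and 13.2 FPKM in Ctrl and 11.2, 9.92 and 11.6 FPKM in Gsk3sKO, again without overlap, with a log2 fold change of -0.22 (SE 0.16) that did not pass (limma, adjusted p = 0.849). The ligand Sema7a and its receptor Plxnc1 were thus both recovered from the same precipitated RNA, as were Sema6a and Sema6b with Plxna2 and Plxna4.

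Class B and D plexins were less abundant. Plxnb2, a receptor of Sema4c, was at 3.3, 5.01 and 6.35 FPKM in Ctrl and 5.27, 7.28 and 3.83 FPKM in Gsk3sKO, and Plxnb1, the receptor of Sema4d, at 0.967, 2.15 and 2.43 FPKM in Ctrl and 3.01, 1.98 and 1.52 FPKM in Gsk3sKO. The groups overlapped for both, and Ctrl replicate 1 was the lowest library of each. Plxnb3, known mainly from oligodendrocytes, was at 0.15, 0.163 and 0.321 FPKM in Ctrl and 0.165, 0 and 0 FPKM in Gsk3sKO and was not tested. Plxnd1, the receptor of Sema3e, was at 7.21, 7.11 and 8.75 FPKM in Ctrl and 6.57, 8.72 and 5.28 FPKM in Gsk3sKO, with a log2 fold change of -0.16 (SE 0.23) and an interval of -0.68 to 0.35.

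The neuropilins differed in level. Nrp2, the co-receptor of Sema3c and Sema3f, was at 12.2, 12.3 and 15.1 FPKM in Ctrl and 12.8, 11.9 and 7.7 FPKM in Gsk3sKO, and Nrp1, the co-receptor of Sema3a, at 3.84, 5.99 and 5.25 FPKM in Ctrl and 4.63, 4.53 and 6.27 FPKM in Gsk3sKO. In Ctrl the lowest Nrp2 value was above the highest Nrp1 value, and the same held in Gsk3sKO. The log2 fold change was -0.29 (SE 0.22) for Nrp2 and 0.034 (SE 0.24) for Nrp1, and both intervals cover 0. The Plxdc genes encode receptors of the secreted factor PEDF and share a plexin-like domain, without being known semaphorin receptors. Plxdc2 was at 9.27, 8.3 and 10.6 FPKM in Ctrl and 10.8, 10.7 and 11.2 FPKM in Gsk3sKO, every Gsk3sKO value lying above every Ctrl value, with a log2 fold change of 0.20 (SE 0.17) (limma, adjusted p = 0.866). Plxdc1 was at 2.2, 3.91 and 3.01 FPKM in Ctrl and 3.04, 4.53 and 3.07 FPKM in Gsk3sKO, with overlapping groups.

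**Figure D2:**
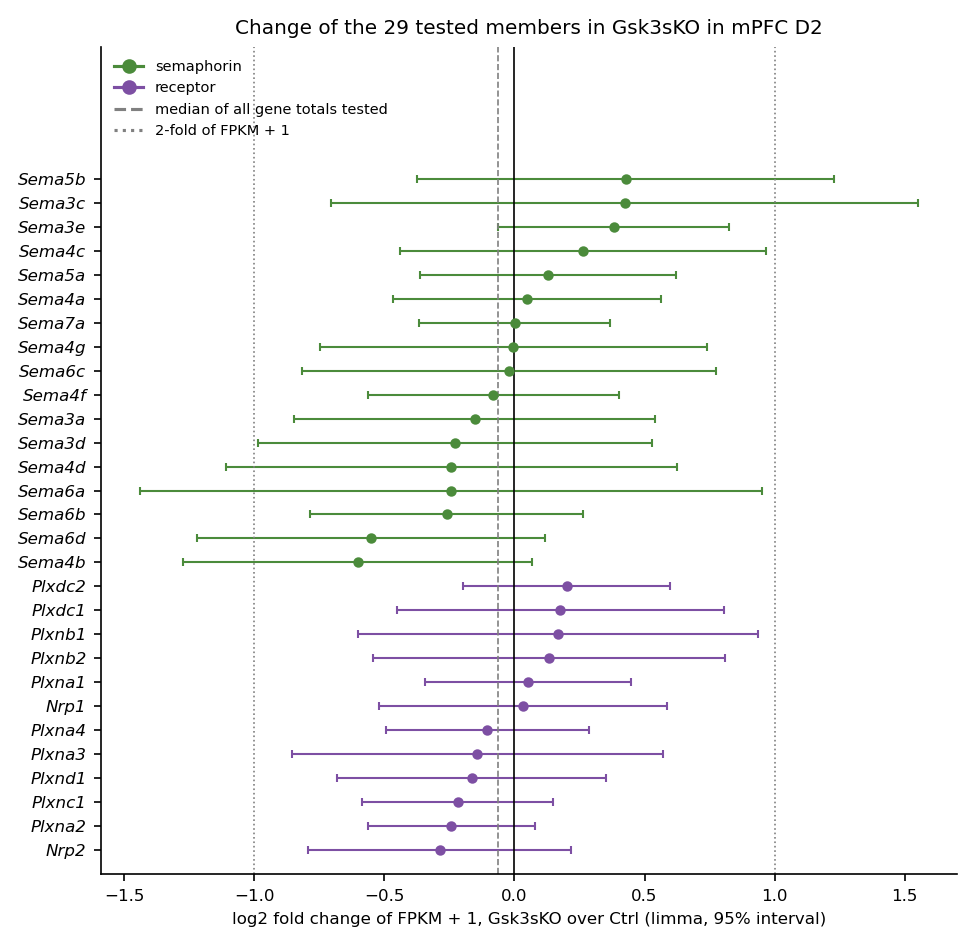
Log2 fold change of FPKM + 1, Gsk3sKO over Ctrl (x axis), of the 29 tested members, with the 95% interval from limma as bars. The dashed line is the median of all gene totals tested (-0.062) and dotted lines mark a 2-fold change of FPKM + 1, which is more than 2-fold in FPKM for low members. Every interval covers 0, and those of the receptors stay within the dotted lines.

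In all, 3 members did not overlap between groups with Gsk3sKO lower (Sema4b, Plxna2 and Plxnc1) and 2 with Gsk3sKO higher (Sema3e and Plxdc2). Across all gene totals, 8.30% were without overlap and lower and 3.71% without overlap and higher. Under alternatives that called members, the names were Plxna2 without a filter on low values, Sema3e after rescaling, Plxna2, Plxnc1 and Sema4b in an ordinary linear model without moderation, Sema6d without Ctrl replicate 3 and Sema4b without Gsk3sKO replicate 3.

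Part of the Plxna2, Plxnc1 and Sema6d differences sat in transcripts that do not code for protein. When only transcripts typed as protein-coding in GENCODE M21 were summed, an alternative chosen after the data were seen, Plxna2 was at 18.6, 23.5 and 22.5 FPKM in Ctrl and 21.4, 19.4 and 18.5 FPKM in Gsk3sKO. These values overlapped, and the log2 fold change was -0.11. The remainder of Plxna2, mostly the retained-intron transcript ENSMUST00000194398, was 9.37, 2.66 and 1.66 FPKM in Ctrl and 0.479, 3.6 and 2.25 FPKM in Gsk3sKO. The coding sum of Plxnc1 was 9.01, 11.4 and 12.3 FPKM in Ctrl and 11.1, 9.88 and 11.5 FPKM in Gsk3sKO, a log2 fold change of 0.0026. Its other transcripts were at 3.45, 1.39 and 0.948 FPKM in Ctrl and 0.0534, 0.0445 and 0.0415 FPKM in Gsk3sKO. In Sema6d, 7.42 of the 15.45 FPKM of Ctrl replicate 1 came from non-coding transcripts (ENSMUST00000137172), beside at most 1.275 FPKM in any other library. Its coding log2 fold change was -0.35. For all 3 genes the highest non-coding value was thus in Ctrl replicate 1. On the coding sum 3 of 26 members (Sema4b, Sema3e and Plxdc2) were without overlap, beside 11.6% of all coding sums, with log2 fold changes of -0.52, 0.38 and 0.21. Plxna3 changed sign, from -0.14 to 0.26, since its retained-intron transcript was highest in Ctrl replicates 2 and 3. On the coding sum 26 members were tested and 0 called at an unadjusted p under 0.05, against 5.63% of all such sums. Sema3d, Sema4g and Sema6c dropped under the filter. Of the FPKM of Sema6c only 26.8% came from coding transcripts, and of Sema5b 48.0%.

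**Figure D3:**
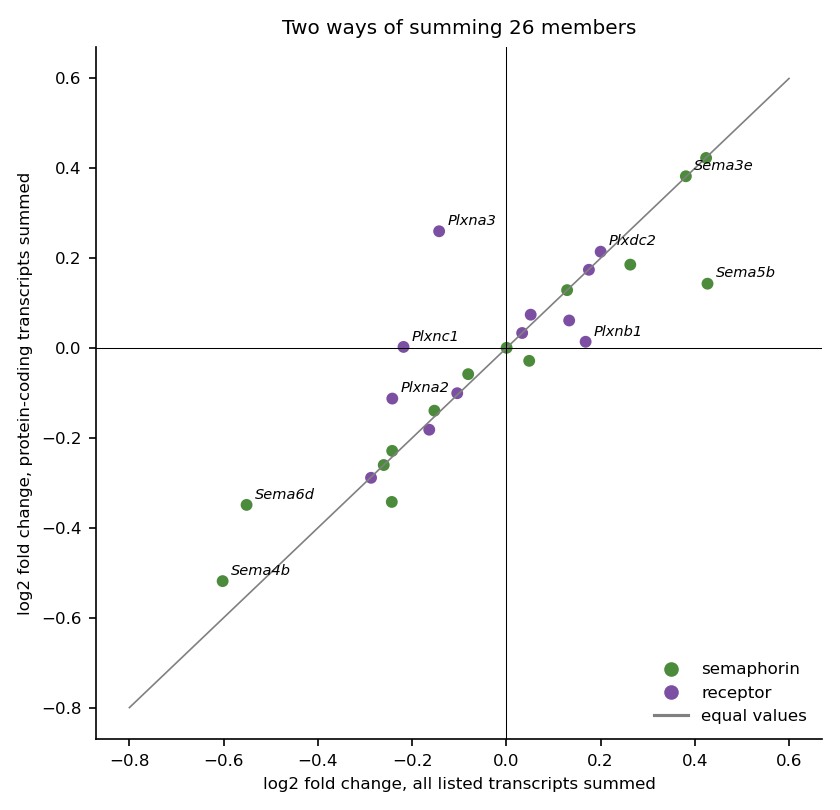
Log2 fold change, Gsk3sKO over Ctrl, of 26 members with all listed transcripts summed (x axis) and with protein-coding transcripts alone (y axis). The grey line marks equal values. Plxna2 moves from -0.24 to -0.11 and Plxnc1 from -0.22 to 0.0026, while Sema3e, Plxdc2 and Sema4b stay near the line.

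The division of reads between isoforms was unstable among libraries for several members. Of the 29 tested genes, 18 had the same leading transcript in all 6 libraries and 11 did not. In 13 the top transcript held more than 90% of the FPKM. Nrp2 was one of the divided genes, and its coding isoforms differ at the 3′ end of the coding sequence, which encodes the membrane-near and intracellular part. Short coding stretches that differ among them are shown. The isoform values do not rest on these stretches alone. Total lengths differ as well, at 6342 bases for ENSMUST00000063594, 6723 for ENSMUST00000075144 and 6534 for ENSMUST00000114155. Coordinates are GRCm38, plus strand, and capitals mark the bases that the named isoform has and the other compared isoforms lack. The comparison is among the 3 tested coding isoforms. The less abundant coding isoform ENSMUST00000114157, at 0.0153, 2.87 and 0 FPKM in Ctrl and 1.1, 0 and 0.55 FPKM in Gsk3sKO, carries both stretches, and ENSMUST00000027112, at 0, 1.23 and 0.594 FPKM in Ctrl and 1.06, 1.22 and 0 FPKM in Gsk3sKO, carries the first. ENSMUST00000075144 extends an exon at chr1:62786281-62786316 by 15 bases (5 codons), and ENSMUST00000063594 includes an exon of 51 bases (17 codons) at chr1:62812534-62812584. ENSMUST00000114155 has neither and ends in its own last coding exon (chr1:62795709-62795986), where the other 2 share a later one (chr1:62815333-62815634).
Nrp2 extension in ENSMUST00000075144: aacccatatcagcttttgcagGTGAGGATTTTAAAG
Nrp2 exon in ENSMUST00000063594: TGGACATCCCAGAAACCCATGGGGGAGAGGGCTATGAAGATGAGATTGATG

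The form with the 17-codon exon, ENSMUST00000063594, was at 3.39, 4.54 and 7.67 FPKM in Ctrl and 4.48, 3.72 and 0.896 FPKM in Gsk3sKO. The form with the 5-codon extension, ENSMUST00000075144, was at 6.1, 0.872 and 0 FPKM in Ctrl and 0.916, 4.18 and 4.92 FPKM in Gsk3sKO, and ENSMUST00000114155 at 2.63, 1.22 and 5.26 FPKM in Ctrl and 4.59, 0.683 and 1.33 FPKM in Gsk3sKO. Relative to its mean, each varied more than the Nrp2 total within both groups, and for each isoform the groups overlapped. The isoform with the extension led in Ctrl replicate 1 and in Gsk3sKO replicates 2 and 3, the 17-codon form in Ctrl replicates 2 and 3, and ENSMUST00000114155 in Gsk3sKO replicate 1. The log2 fold changes were -0.70 (SE 0.51), 0.71 (SE 0.84) and -0.40 (SE 0.62) in the same order, and none passed.

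Sema6d isoforms differ in the stretch between the semaphorin domain and the intracellular end. ENSMUST00000051419 and ENSMUST00000078621 extend an exon at chr2:124660244-124660344 by 39 bases (13 codons). ENSMUST00000078621 also includes an exon of 57 bases (19 codons) at chr2:124660705-124660761, and ENSMUST00000103241 lacks both. The exon is also part of the listed coding isoforms ENSMUST00000103239 and ENSMUST00000103240, which were not tested. Another compared isoform, ENSMUST00000077847, also lacks both stretches. It includes an exon of 168 bases (56 codons) at chr2:124662204-124662371, whose sequence is not shown. Build, strand and capitals are as for Nrp2, and the extension is present in both ENSMUST00000051419 and ENSMUST00000078621.
Sema6d extended exon: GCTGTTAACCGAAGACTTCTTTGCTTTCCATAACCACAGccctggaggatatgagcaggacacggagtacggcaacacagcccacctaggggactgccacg
Sema6d exon in ENSMUST00000078621: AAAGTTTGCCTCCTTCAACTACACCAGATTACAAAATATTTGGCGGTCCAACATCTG

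ENSMUST00000103241, without either stretch, was at 2.06, 0.492 and 5.07 FPKM in Ctrl and 4.73, 6.49 and 0 FPKM in Gsk3sKO. It ranged from 0 to 6.49 FPKM within Gsk3sKO alone. ENSMUST00000051419 was at 0, 5.25 and 1.21 FPKM in Ctrl and 0.000218, 0 and 0 FPKM in Gsk3sKO, and so close to 0 in all Gsk3sKO libraries but also at 0 in Ctrl replicate 1. ENSMUST00000078621 was at 2.05, 1.66 and 0 FPKM in Ctrl and 0.882, 0.0301 and 1.69 FPKM in Gsk3sKO. With standard errors of 0.91, 0.74 and 0.64, the log2 fold changes of 0.21, -1.26 and -0.21 were not resolved.

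Sema3a showed the smallest p among member transcripts. The full-length ENSMUST00000030714 (5930 bases) was at 2.39, 1.42 and 6.04 FPKM in Ctrl and 8.8, 6.0 and 6.72 FPKM in Gsk3sKO, a log2 fold change of 1.07 (SE 0.45) that did not pass (limma, adjusted p = 0.842). Ctrl replicate 3 lay just above the lowest Gsk3sKO value, so the groups overlapped. The shorter ENSMUST00000137798 (2285 bases, 2064 of them coding) was at 8.43, 10.4 and 1.82 FPKM in Ctrl and 0, 0 and 7.37 FPKM in Gsk3sKO. It was listed at 0 in 2 Gsk3sKO libraries, yet at 7.37 FPKM in the third. In every library but Gsk3sKO replicate 3 one of the forms clearly outweighed the other, and which one it was differed among Ctrl libraries.

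**Figure D4:**
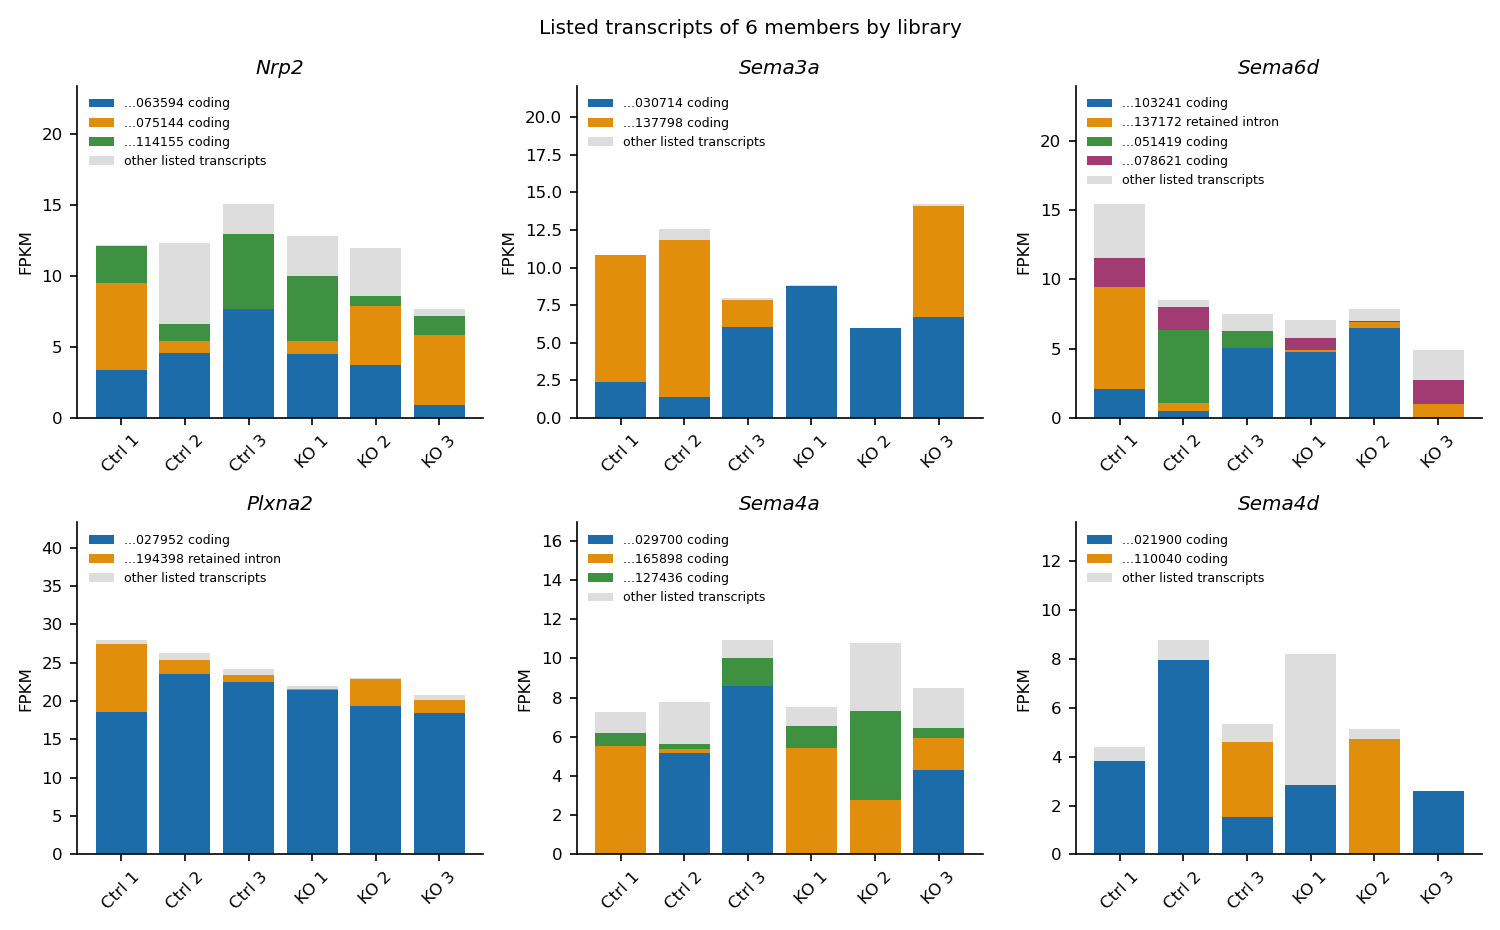
FPKM (y axis, linear, from 0) of the tested transcripts of 6 members, stacked in each library, with other listed transcripts in grey; KO stands for Gsk3sKO. Labels give the last digits of the transcript identifier. The leading colour changes between replicates of one group in Nrp2, Sema3a, Sema6d, Sema4a and Sema4d, whereas the coding Plxna2 transcript is steady.

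Sema4a and Sema4d were divided in the same way. In Sema4a, ENSMUST00000029700 and ENSMUST00000165898 have coding sequences of equal length (2280 bases). The first was at 0, 5.17 and 8.61 FPKM in Ctrl and 0, 0 and 4.31 FPKM in Gsk3sKO and the second at 5.53, 0.205 and 0 FPKM in Ctrl and 5.44, 2.79 and 1.65 FPKM in Gsk3sKO. In Sema4d, ENSMUST00000021900 was at 3.84, 7.96 and 1.53 FPKM in Ctrl and 2.83, 0.0262 and 2.59 FPKM in Gsk3sKO, and it led in Ctrl replicates 1 and 2 and Gsk3sKO replicate 3. Sema6b, by contrast, was led in all 6 libraries by ENSMUST00000001256, at 18.4, 11 and 19.3 FPKM in Ctrl and 11.9, 19.6 and 10.3 FPKM in Gsk3sKO, and Plxna2 by ENSMUST00000027952, at 18.6, 23.5 and 22.5 FPKM in Ctrl and 21.4, 19.4 and 18.5 FPKM in Gsk3sKO. In Sema4b, the non-overlapping total was carried in Ctrl replicate 2 by ENSMUST00000205822, which was at 0, 1.87 and 0 FPKM in Ctrl and 0, 0 and 0 FPKM in Gsk3sKO, and in the other libraries by ENSMUST00000032754, at 2.01, 0 and 2.62 FPKM in Ctrl and 1.1, 0.843 and 1.76 FPKM in Gsk3sKO. Both have a coding sequence of 2469 bases. The leading transcript of Sema4b alone had a log2 fold change of -0.011 (SE 0.60), with its 0 in Ctrl replicate 2 included. Without Ctrl replicate 2 the log2 fold change of the Sema4b total was -0.60, as with all libraries, and did not pass. Of 37 member transcripts tested, belonging to 26 genes, 0 were called, against 5.56% of all 21584 transcripts tested. Only 2 were without overlap (Plxdc2 ENSMUST00000028081 and Sema3e ENSMUST00000073957, both higher in Gsk3sKO), beside 11.2% of all transcripts in either direction and 4.28% with Gsk3sKO higher.

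Other genes of the pathway were read from a list of 50: 11 co-receptors such as L1cam and Chl1, 5 further ligands of neuropilins or Plxdc proteins, and 34 cytoplasmic effectors such as the collapsin response mediators and Mical proteins. Of these, 43 were tested, and 2 were called higher and 0 lower at an unadjusted p under 0.05 (background 1.36% higher), with 0 after adjustment. None of the 7 tested co-receptors was called. Serpinf1, which encodes PEDF, the ligand of the Plxdc receptors, was called higher on the unadjusted test. Its totals were 1.2, 1.45 and 0.869 FPKM in Ctrl and 1.62, 3.12 and 5.53 FPKM in Gsk3sKO. The log2 fold change was 0.93 (SE 0.37) (limma, adjusted p = 0.747). Part of that total was a retained-intron transcript of 352 bases, ENSMUST00000139403, at 0, 0.107 and 0 FPKM in Ctrl and 0, 1.3 and 3.69 FPKM in Gsk3sKO. On coding transcripts alone the log2 fold change of Serpinf1 was 0.37 and the call was lost. At the same log2 fold change, the call was also lost without a filter on low values and without moderation. It was lost whenever a library other than Gsk3sKO replicate 1 was left out, where the log2 fold change lay between 0.60 (without Gsk3sKO replicate 3) and 1.02 (without Ctrl replicate 2). Without Gsk3sKO replicate 1 it was called at 1.26. The full-length coding transcript ENSMUST00000000769 was at 0.674, 0.897 and 0.785 FPKM in Ctrl and 1.62, 1.82 and 1.41 FPKM in Gsk3sKO, without overlap but not called (limma, log2 fold change 0.55 (SE 0.37)). Pericyte and meningeal fibroblast markers, of cells known to make PEDF, summed to 8.6 to 25.1 FPKM in Ctrl and 14.0 to 31.0 FPKM in Gsk3sKO with 0 of 4 called, and their part in the Serpinf1 values was not tested.

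The other called gene, Sh3bp1, codes for a Rac GTPase-activating protein that acts downstream of Sema3e and Plxnd1. Its total in the table was 26.7, 29.5 and 28.5 FPKM in Ctrl and 55.1, 55.6 and 39 FPKM in Gsk3sKO (limma, log2 fold change 0.78 (SE 0.17), adjusted p = 0.407). Those totals did not measure Sh3bp1 alone. The table lists under Sh3bp1 a transcript, ENSMUST00000089378, that GENCODE M21 assigns to the neighbouring gene Pdxp (chr15:78913919-78919517, plus strand), which encodes the phosphatase chronophin, and another, ENSMUST00000134703, that it assigns to the read-through gene Gm49510 spanning both. The Pdxp transcript was at 10.8, 5.81 and 3.59 FPKM in Ctrl and 52, 51.6 and 36.2 FPKM in Gsk3sKO. The read-through transcript was at 12.8, 19 and 19.9 FPKM in Ctrl and 2.1, 3.28 and 2.62 FPKM in Gsk3sKO. The Sh3bp1 transcript proper, ENSMUST00000001226, was at 3.08, 4.77 and 5.03 FPKM in Ctrl and 0.986, 0.717 and 0.142 FPKM in Gsk3sKO. All 3 were without overlap between groups, beside 11.2% of all transcripts tested. On the transcript level all 3 passed the unadjusted threshold, beside 5.56% of all transcripts. They were examined because their total had been called, so these results are not separate support for it. The log2 fold change was 2.71 (SE 0.37) for Pdxp (limma, adjusted p = 0.183), -2.30 (SE 0.27) for the read-through form (limma, adjusted p = 0.138) and -1.73 (SE 0.40) for Sh3bp1 itself (limma, adjusted p = 0.61). The higher total thus came from Pdxp. The listed values of the Sh3bp1 transcript were lower in Gsk3sKO, without passing after adjustment. The read-through transcript shares exons with both genes, so the division of reads among the 3 is an estimate. Pdxp and Gm49510 were named after their values were seen. None of the 213 member transcripts was assigned to another gene in GENCODE M21. Other annotated genes overlapped 19 of the 33 members, but none of those with a listed value reached a mean of 1 FPKM. Gm48718, which overlaps Plxnc1, and 4930465K09Rik, which overlaps Sema5a, had no listed value.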

How the data were processed

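RNA associated with RiboTag ribosomes was sequenced in 3 Ctrl and 3 Gsk3sKO libraries, grouped by the submitters' labels. Transcript FPKM values of every library were deposited by the authors. The submitters' processing notes name HISAT2 2.1.0, SAMtools 1.9, StringTie 1.3.4d and GRCm38, with settings not given in the sources used here. StringTie estimates how reads divide among overlapping transcripts. Fold, p-value and q-value columns hold the authors' own comparison and were not used, and 0 columns of library values were left out.

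FPKM was summed by gene identifier. Gene totals and transcripts with a mean of at least 1 FPKM entered a linear model without covariates on log2(FPKM + 1), fitted over all features with lmFit and trended eBayes of limma 3.58.1 (R 4.3.3). Tests were two-sided, with Benjamini-Hochberg adjustment, and a feature was called at an unadjusted p under 0.05. The pseudocount understates changes of low genes. On simulated data for these libraries, 93% of gene totals and 73% of transcripts altered by 1 on the log2 scale were called, as were 5.21% and 5.28% of unaltered ones. At an adjusted p under 0.05 the shares of altered features were 47% and 2%. Only features above a set mean level were altered, so the rates for altered features do not cover low members such as Sema4b. The rates are averages over features and do not hold for members with a wide spread, such as Sema6a (SE 0.52). Noise was drawn independently for each feature, so shifts shared by the genes of a library were not simulated. Transcript types, positions and sequences came from GENCODE M21 (GRCm38), which holds all 213 member transcripts. Figures were made with Python 3.11.15 and matplotlib 3.10.9.

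Members, lists and alternatives were chosen with earlier results of these data known. Every member is named, as are pathway genes called on gene totals and the transcript with the highest mean of each member with several tested. Alternatives were a pseudocount of 0.1, no filter, a filter at 5 FPKM, rescaling to the median ratio, no moderation, a replicate block, leaving out each library and, added later, coding transcripts alone. Same-numbered libraries did not deviate together (r = -0.027, -0.011 and -0.081), so replicate numbers were not treated as pairs.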

Additional observations from a re-analysis of the deposited data

How the results depend on the processing

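Over all members, 361 log2 fold changes were recomputed under the alternatives. Of these 320 kept their sign and side of the threshold, 7 passed the threshold that they had missed, and 34 changed sign, 29 of them when a library was left out. The count of member gene totals called (0) became 1 without a filter, 1 after rescaling, 3 without moderation and 0 to 1 when single libraries were left out. For semaphorins it became 1 after rescaling, 1 without moderation and 0 to 1 over left-out libraries, and for receptors 1 without a filter and 2 without moderation. Pathway genes called (2) became 1 at a filter of 5 FPKM, 4 after rescaling and 1 without moderation. With coding transcripts alone the count was 3, and Serpinf1 was not among them. Over left-out libraries it ranged from 1 to 5 (1 without Ctrl replicate 2, 5 without Gsk3sKO replicate 1). Member transcripts called (0) became 1 after rescaling and 0 to 2 over left-out libraries (2 without Ctrl replicate 1). The cause was not tested. With the replicate block, which treats equal numbers as pairs, 0 members were called and 821 gene totals in all, beside 844, and no member changed sign. Serpinf1 lost its call under the block (log2 fold change 0.93, SE 0.40). Over all gene totals the count ranged from 573 without Ctrl replicate 2 to 1178 without Gsk3sKO replicate 1, and was 1121 without a filter and 564 at 5 FPKM, where fewer genes were tested.

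Sign changes after rescaling were Sema4g (0.038) and Sema6c (0.023). With coding transcripts alone they were Plxna3 (0.26), Plxnc1 (0.0026) and Sema4a (-0.028). When libraries were left out in turn, the log2 fold change ranged for receptors from -0.12 to 0.15 (Nrp1), -0.049 to 0.13 (Plxna1), -0.37 to 0.097 (Plxna3), -0.19 to 0.0016 (Plxna4), -0.079 to 0.32 (Plxnb1) and -0.076 to 0.33 (Plxnb2). For semaphorins it ranged from -0.44 to 0.12 (Sema3a), -0.21 to 0.81 (Sema3c), -0.083 to 0.21 (Sema4a), -0.57 to 0.11 (Sema4d), -0.20 to 0.046 (Sema4f), -0.15 to 0.24 (Sema4g), -0.83 to 0.15 (Sema6a), -0.31 to 0.17 (Sema6c) and -0.13 to 0.077 (Sema7a). The other 13 members kept their sign under every alternative in which they were tested. Depth was only estimated, so counting error could not be separated from other spread between libraries.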

Other observations

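Of the 43 tested pathway genes, 6 had no overlap between groups, all with Gsk3sKO higher (background 3.71% higher). Besides Serpinf1 and the Sh3bp1 total that held Pdxp, these were Mical2, Rac1, Chl1 and Vegfb, named after their values were seen. Mical2, an actin-oxidising enzyme of the Mical family, averaged 109 ± 7.95 FPKM in Ctrl and 136 ± 16.6 FPKM in Gsk3sKO (SD, n = 3), a log2 fold change of 0.32 (SE 0.14) (limma, adjusted p = 0.755). Rac1, the small GTPase that plexins bind, was at 35.8, 38.7 and 39.2 FPKM in Ctrl and 69, 41.7 and 44.9 FPKM in Gsk3sKO, where Gsk3sKO replicate 1 stood above the rest, with a log2 fold change of 0.41 (SE 0.20) (limma, adjusted p = 0.779). Vegfb was at 19.9, 20.1 and 20.5 FPKM in Ctrl and 21.5, 25.2 and 30.9 FPKM in Gsk3sKO and Chl1, a cell adhesion co-receptor of Nrp1, at 49.4, 48.5 and 50.6 FPKM in Ctrl and 52.6, 50.6 and 51.7 FPKM in Gsk3sKO. The Chl1 groups were separate by a small margin. None of the 4 passed the unadjusted threshold. Gsk3a, the gene of the related kinase GSK3α, was at 39.8, 43.8 and 48.6 FPKM in Ctrl and 50.1, 48.7 and 43.6 FPKM in Gsk3sKO with overlapping groups.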
